A study of Homo sapiens with 6 samples.

Results

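Most genes described here make cholesterol and fatty acids and are switched on by the sterol regulatory element-binding proteins (SREBPs). The other 6 are listed as regulators. All were chosen by name, with earlier results of these data known. Of 34 listed genes, 30 had a probe set on the array, with exactly 1 probe set each, among 15669 named genes and 16965 probe sets in all. The sterol branch, from acetyl-CoA to cholesterol, was represented by 15 of 18 genes, the fatty acid branch by 9 of 10 and the regulators by 6 of 6. PMVK, FDFT1, SQLE and FADS1 were not analysed here.

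Transcript levels came from 6 arrays, all of MDA-MB-231, a human cell line of triple-negative breast cancer with mesenchymal features. The cells carried lentiviral short hairpin RNAs and were grown in RPMI1640 with 10% fetal bovine serum, penicillin/streptomycin and 2.5 µg/ml puromycin. The control hairpin is labelled shNCT, and 2 hairpins against S100A10 are labelled shS100A10_1 and shS100A10_5. Each of these 3 groups has 2 arrays. The labels do not say whether a group's arrays stem from different cultures, so the p-values reflect nothing beyond the array-to-array spread, and that spread may be technical.

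SREBPs are made as precursors in the endoplasmic reticulum membrane, where SCAP escorts them to the Golgi for cleavage when sterols are low and INSIG proteins hold SCAP back when sterols are plentiful. The released fragment enters the nucleus and turns on the genes of sterol synthesis, for which SREBF2 is the better known regulator, and of fatty acid synthesis, for which SREBF1 is. Many tumour cells make their own fatty acids and cholesterol for membranes, and serum in the medium supplies both from outside.

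The promoters of 5 of these genes are shown because each carries, or lacks, the short motifs that the SREBPs are known to bind, and because their values differ in what follows. Each is the stretch of 250 bases directly before the transcription start in RefSeq (GRCh38.p14), read in the direction of the gene. Capitals mark matches, on either strand, to the sterol regulatory element core TCACNCCA, to the E-box-like form TCACNTGA, or to CCAAT, the motif of the partner factor NF-Y. No matches overlapped in the sequences shown.
MVK promoter, chr12:109573544-109573793, plus strand: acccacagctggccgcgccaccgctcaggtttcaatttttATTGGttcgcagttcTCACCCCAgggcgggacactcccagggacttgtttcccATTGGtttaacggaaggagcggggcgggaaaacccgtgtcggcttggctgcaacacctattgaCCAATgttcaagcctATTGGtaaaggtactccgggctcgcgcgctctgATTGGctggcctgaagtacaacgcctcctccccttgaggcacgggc
MSMO1 promoter, chr4:165327419-165327668, plus strand: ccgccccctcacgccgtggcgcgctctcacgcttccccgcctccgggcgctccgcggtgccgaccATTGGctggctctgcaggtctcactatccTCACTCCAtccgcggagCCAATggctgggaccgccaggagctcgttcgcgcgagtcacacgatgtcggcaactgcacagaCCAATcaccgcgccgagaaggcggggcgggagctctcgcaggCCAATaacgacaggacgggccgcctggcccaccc
SREBF2 promoter, chr22:41832855-41833104, plus strand: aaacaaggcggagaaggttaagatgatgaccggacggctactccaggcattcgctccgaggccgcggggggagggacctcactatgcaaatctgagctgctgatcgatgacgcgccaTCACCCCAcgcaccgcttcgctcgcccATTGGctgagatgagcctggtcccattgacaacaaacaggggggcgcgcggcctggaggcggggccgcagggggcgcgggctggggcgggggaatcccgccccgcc
INSIG1 promoter, chr7:155297628-155297877, plus strand: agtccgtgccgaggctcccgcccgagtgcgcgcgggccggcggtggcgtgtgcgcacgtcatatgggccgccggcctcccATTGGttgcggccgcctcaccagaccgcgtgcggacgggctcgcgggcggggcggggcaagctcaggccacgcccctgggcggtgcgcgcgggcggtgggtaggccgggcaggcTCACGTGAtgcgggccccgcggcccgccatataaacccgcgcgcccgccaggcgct
SCD promoter, chr10:100346983-100347232, plus strand: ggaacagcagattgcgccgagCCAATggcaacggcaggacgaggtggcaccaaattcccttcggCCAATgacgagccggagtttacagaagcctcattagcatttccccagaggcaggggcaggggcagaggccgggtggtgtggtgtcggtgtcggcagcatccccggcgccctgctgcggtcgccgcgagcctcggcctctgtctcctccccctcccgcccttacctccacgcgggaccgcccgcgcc

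MVK and MSMO1 each had 1 match to TCACNCCA, at 195 and 156 bases before the start, as did SREBF2 at 133 bases. INSIG1 had 1 match to TCACNTGA at 56 bases, on a palindromic stretch, and the SCD window had neither of these motifs. CCAAT stood 5 times in the MVK window, 4 times in that of MSMO1, 2 times in that of SCD and 1 time each in those of SREBF2 and INSIG1. RefSeq entries were at hand for 30 of the 34 listed genes, with 42 start sites. TCACNCCA was found in 3 of those 42 windows (7.14%), against 3.2% of all 35116 promoter windows of the same length. TCACNTGA was found in 2 (4.76%), against 3.2%, and CCAAT in 25 (59.5%), against 32.0%. TCACNCCA stood in MVK, MSMO1 and SREBF2, TCACNTGA in EBP and INSIG1, and neither in any of the 9 fatty acid genes with an entry. CCAAT stood in 13 of 15 sterol genes with an entry, 5 of 9 fatty acid genes and 3 of 6 regulators. These are counts of letters in a window and do not show binding. ACAT2, FASN, FDFT1 and SQLE had no entry in the table used.

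S100A10, the target of both hairpins, read 16.44 and 16.50 on the log2 scale in shNCT, 10.94 and 10.59 in shS100A10_1 and 13.73 and 13.21 in shS100A10_5. It fell by 5.70 and by 3.0 (SE 0.21 each, limma adjusted p = 1.7e-06 and 0.00044), so the labels hold and the hairpin with the smaller loss of S100A10 is shS100A10_5. The arrays of shS100A10_5 stood apart from the other 4. On the first principal component, which carried 45.2% of the variance, they lay at 18.7 and 41.1, and the other 4 arrays lay between -18.2 and -10.0. Replicate 2 of shS100A10_5 was the farthest out, and results that rest on it are given with and without it. Of 6 markers of this cell line, 6 were measured, among them VIM at 16.5 and CAV1 at 15.1 (mean log2 level in shNCT). The adipocyte and hepatocyte markers measured, from PLIN1 to CD36 and from ALB to FGB, had control means between 3.09 and 5.71.

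Cells with shS100A10_5 had lower values for most of these lipid synthesis genes, while their changes with shS100A10_1 were mixed in sign and had a median near 0. Against shNCT, 22 of the 30 measured genes had a lower mean with shS100A10_5 and 8 a higher one, with a median log2 change of -0.42 where all probe sets had a median of 0.025. MVK, FASN and ACSS2, all enzymes, passed the test as lower (limma, Benjamini-Hochberg adjusted p under 0.05 over all 16965 probe sets). That is 3 of 30, where 1.75% of all probe sets were called lower and 1.43% higher, and no member was called higher. At an unadjusted p under 0.05, 15 of the 30 were lower and 1 was higher, where 10.3% of all probe sets were lower and 10.7% higher. With shS100A10_1 the median change was -0.01 (all probe sets 0.0056), 17 members had a negative sign and 13 a positive one, and 0 were called, where 0.189% of all probe sets were called in either direction. At an unadjusted p under 0.05 in limma, 0 members were lower and 2 higher with shS100A10_1, where 4.16% of all probe sets were lower and 4.28% higher. In these bulk samples, fewer cells of one kind and less RNA per cell cannot be told apart.

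The position of the single arrays showed the same division. With shS100A10_5, both arrays lay below both controls for 19 members and above them for 3, where 23.8% of all probe sets were lower in this way and 26.7% higher. With shS100A10_1 the arrays lay below both controls for 8 members and above them for 7, where 20.5% of all probe sets were lower in this way and 21.9% higher. Both comparisons use the same 2 control arrays.

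**Figure D1:**
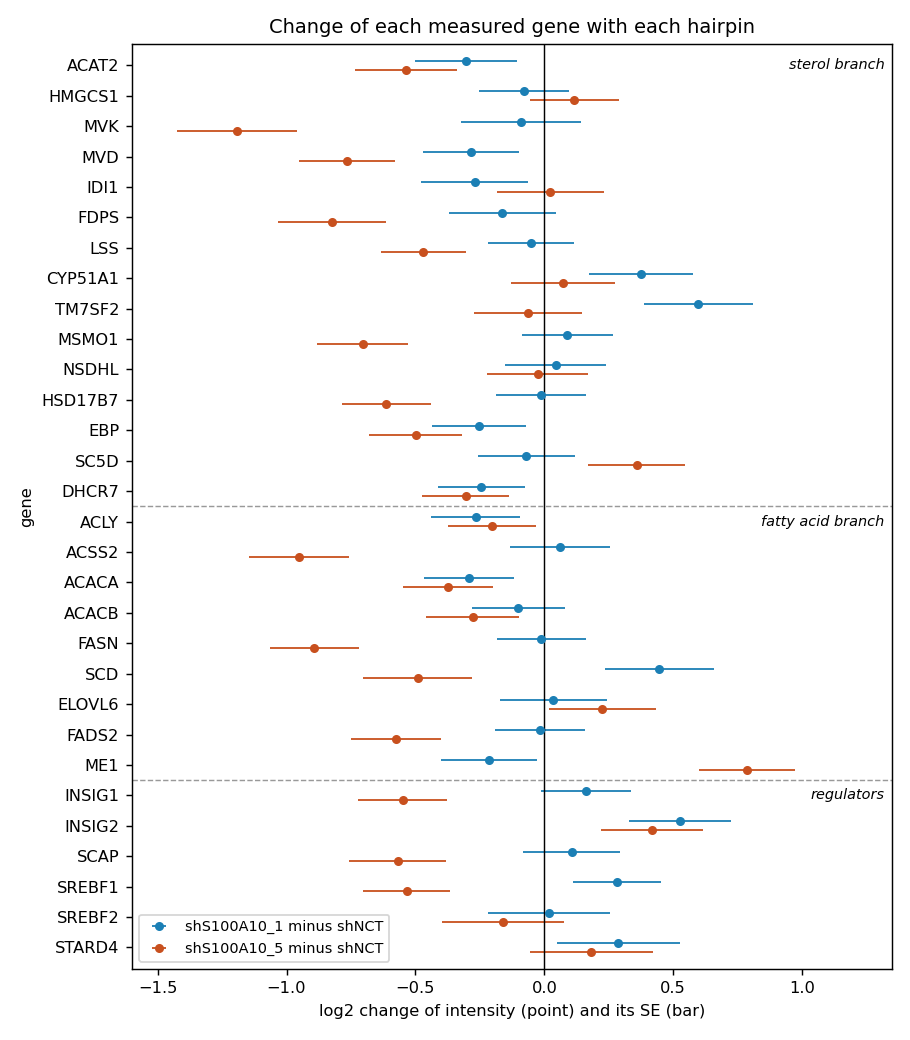
Log2 change of intensity (horizontal axis) of the 30 measured genes (vertical axis, by branch), with shS100A10_1 in blue and shS100A10_5 in orange; points are the difference from the mean of 2 shNCT arrays and bars are 1 SE from limma. Most orange points lie left of 0, down to -1.19 for MVK, ME1 stands alone at 0.79 on the right, and the blue points scatter around 0 between -0.30 and 0.60.

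In the sterol branch, which builds isoprenoid units from acetyl-CoA and cyclizes squalene into the sterol rings, 11 of 15 genes had a negative change with shS100A10_5 and 4 a positive one (median -0.47). With shS100A10_1 the count was also 11 of 15, at a median of -0.08. Of all probe sets, 46.7% had a negative change with shS100A10_5 and 49% with shS100A10_1. With shS100A10_5, 8 of the 15 were lower at an unadjusted p under 0.05, where 10.3% of all probe sets were. MVK alone passed as lower after adjustment, where 1.75% of all probe sets did. The changes with shS100A10_5 were not uniform. The entry enzyme HMGCS1, the isomerase IDI1, the demethylase CYP51A1 and the late enzymes NSDHL and TM7SF2 had changes between -0.06 and 0.12. For IDI1, CYP51A1 and NSDHL the 2 shS100A10_5 arrays lay on opposite sides of the control mean. With shS100A10_1, IDI1 had a change of -0.27 and CYP51A1 of 0.37 (limma adjusted p = 0.80 and 0.68).

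MVK, mevalonate kinase, read 9.28 and 9.65 in shNCT, 9.55 and 9.20 in shS100A10_1 and 8.55 and 8.01 in shS100A10_5. Both arrays of shS100A10_5 lay below the other 4, which overlapped one another. MVK fell by 1.19 (SE 0.23, 95% interval -1.71 to -0.68), or 2.28-fold, with shS100A10_5 (limma adjusted p = 0.031), and its change with shS100A10_1 was -0.09 (SE 0.23, adjusted p = 0.96). Without replicate 2 of shS100A10_5 the change was -0.92 with an adjusted p of 0.19, and over all 16 alternatives in which it was tested at the same threshold the adjusted p ranged from 0.0060 to 0.21. In the human genome MVK lies head to head with MMAB, an enzyme of vitamin B12 metabolism, and the neighbour was looked up after the MVK values were seen. MMAB read 10.08 and 9.66 in shNCT, 9.65 and 9.66 in shS100A10_1 and 9.53 and 8.69 in shS100A10_5, a change of -0.76 (SE 0.26, adjusted p = 0.13) with shS100A10_5 that did not pass.

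MVD, which decarboxylates mevalonate diphosphate, and FDPS, which joins isoprenoid units into farnesyl diphosphate, follow MVK in the pathway. MVD read 8.26 and 8.32 in shNCT, 8.20 and 7.81 in shS100A10_1 and 7.58 and 7.46 in shS100A10_5. Its change was -0.77 (SE 0.19, adjusted p = 0.054) with shS100A10_5 and -0.28 (SE 0.19, limma adjusted p = 0.76) with shS100A10_1. FDPS read 13.21 and 13.09 in shNCT, 13.09 and 12.88 in shS100A10_1 and 12.59 and 12.06 in shS100A10_5, with a change of -0.82 (SE 0.21, adjusted p = 0.062). For both genes the shS100A10_5 arrays were the lowest of the 6 and did not overlap the rest. FDPS was called without replicate 1 of shS100A10_5 (adjusted p = 0.036) and reached 0.24 without replicate 2.

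MSMO1, which removes methyl groups from the sterol ring, read 13.19 and 13.24 in shNCT, 13.23 and 13.38 in shS100A10_1 and 12.38 and 12.64 in shS100A10_5. Here replicate 1 of shS100A10_5 was the lower of the pair, and both lay below the other 4 arrays. The change against shNCT was -0.70 (SE 0.18, adjusted p = 0.060), and between the hairpins it was -0.79, which passed. HSD17B7, the ketosteroid reductase of the same demethylation steps, differed from shNCT by -0.61 (SE 0.17, adjusted p = 0.082) with shS100A10_5 and by -0.01 with shS100A10_1.

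The next sterol enzymes had smaller negative changes with shS100A10_5 and adjusted p-values from 0.14 to 0.34. They were ACAT2, which condenses acetyl-CoA (-0.54), EBP, the sterol isomerase (-0.50), LSS, which closes the rings (-0.47), and DHCR7, the last step to cholesterol (-0.30). On both shS100A10_1 arrays, 5 of the 15 sterol genes read lower than on both controls, where 20.5% of all probe sets did. These were ACAT2, MVD, IDI1, EBP and DHCR7, with changes of -0.30, -0.28, -0.27, -0.25 and -0.24. None passed (limma adjusted p from 0.75 to 0.80). SC5D, the desaturase of the late pathway, read higher on both arrays of shS100A10_5 (change 0.36, SE 0.19, adjusted p = 0.31). TM7SF2, a sterol reductase, had the largest positive change of the 30 measured genes with shS100A10_1. It read 8.54 and 8.41 in shNCT against 9.36 and 8.78 in shS100A10_1, a change of 0.60 (SE 0.21, adjusted p = 0.44).

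**Figure D2:**
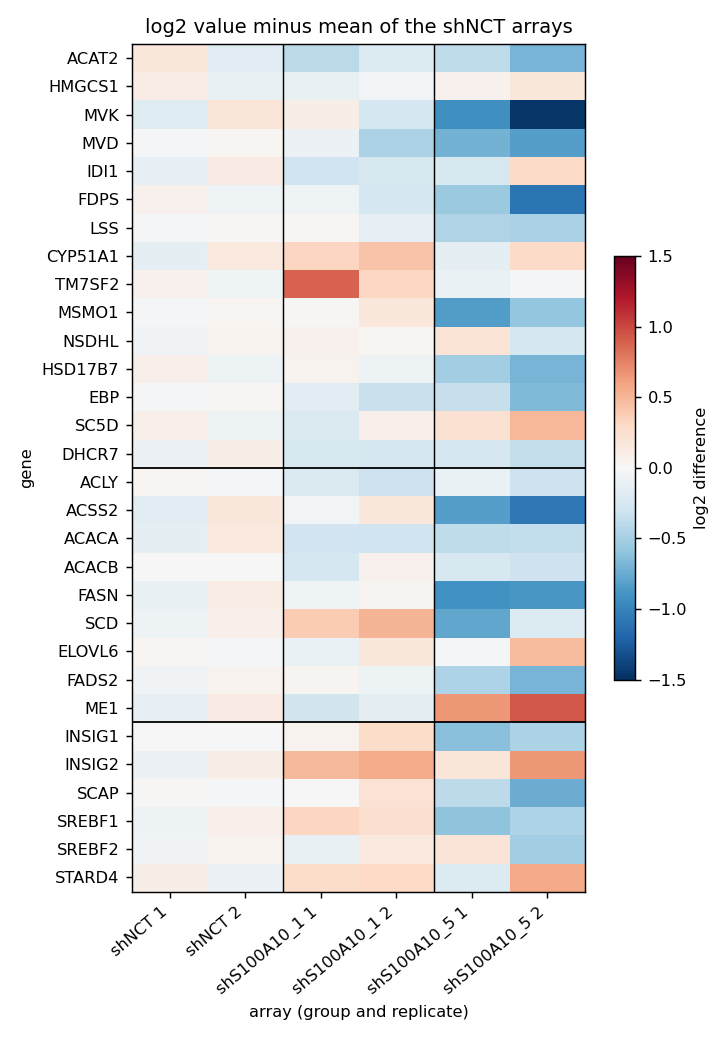
Log2 value minus the mean of the 2 shNCT arrays (colour, from blue at -1.5 to red at 1.5) for each of the 30 measured genes (vertical axis) on each of the 6 arrays (horizontal axis), with lines between branches and groups. The 2 columns of shS100A10_5 are mostly blue, while ME1 is red on both, and IDI1, CYP51A1, NSDHL, ELOVL6, SREBF2 and STARD4 change sign between these 2 arrays.

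The fatty acid branch turns citrate and acetate into acetyl-CoA, carboxylates and elongates it, and desaturates the product. With shS100A10_5, 7 of its 9 genes had a negative change and 2 a positive one (median -0.37), against 6 and 3 with shS100A10_1 (median -0.02). A negative change was seen in 46.7% of all probe sets with shS100A10_5 and in 49% with shS100A10_1. FASN and ACSS2 passed as lower with shS100A10_5, where 1.75% of all probe sets did, and ME1 fell just short of the threshold as higher.

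FASN, the synthase that makes palmitate, read 10.83 and 11.06 in shNCT, 10.88 and 10.99 in shS100A10_1 and 10.04 and 10.07 in shS100A10_5. The 2 shS100A10_5 arrays lay close to each other and below the other 4. FASN fell by 0.89 (SE 0.17, 95% interval -1.28 to -0.51), or 1.86-fold, with shS100A10_5 (limma adjusted p = 0.031). Its change with shS100A10_1 was -0.01 (SE 0.17, 95% interval -0.39 to 0.37). Without replicate 2 of shS100A10_5 the change was -0.91, as large as before, with an adjusted p of 0.15 (range over the alternatives 0.0056 to 0.21).

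ACSS2, which charges acetate with coenzyme A in the cytosol and nucleus, read 8.11 and 8.46 in shNCT, 8.25 and 8.44 in shS100A10_1 and 7.46 and 7.21 in shS100A10_5. The first 4 arrays overlapped and the last 2 lay below them. ACSS2 fell by 0.95 (SE 0.19, 95% interval -1.38 to -0.52), or 1.94-fold, with shS100A10_5 (limma adjusted p = 0.034), and the change with shS100A10_1 was 0.06 (SE 0.19). Without replicate 2 of shS100A10_5 it was -0.83 (adjusted p = 0.19; range over the alternatives 0.014 to 0.23). ACLY, the enzyme that makes acetyl-CoA from citrate, read 14.15 and 14.08 in shNCT, 13.89 and 13.80 in shS100A10_1 and 14.02 and 13.81 in shS100A10_5. All 4 hairpin arrays lay below the controls, by changes of -0.27 and -0.20 (SE 0.17 each, adjusted p = 0.75 and 0.55).

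ME1, the cytosolic malic enzyme that supplies NADPH for lipid synthesis and for redox balance, had a change of the opposite sign. It read 9.76 and 10.01 in shNCT, 9.60 and 9.73 in shS100A10_1 and 10.53 and 10.81 in shS100A10_5, where both arrays lay above the other 4. The change with shS100A10_5 was 0.79 (SE 0.19, adjusted p = 0.051), and that with shS100A10_1 was -0.21 (SE 0.19, adjusted p = 0.83).

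Desaturases came next in size. SCD, which puts the first double bond into stearate and palmitate, read 12.70 and 12.86 in shNCT, 13.16 and 13.29 in shS100A10_1 and 12.00 and 12.58 in shS100A10_5. The hairpins lay on opposite sides of the control, with changes of 0.45 (SE 0.21, adjusted p = 0.61) for shS100A10_1 and -0.49 (SE 0.21, adjusted p = 0.22) for shS100A10_5. The latter was -0.78 without replicate 2 of shS100A10_5 and -0.20 without replicate 1 (adjusted p = 0.17 and 0.52). FADS2, the desaturase at the entry to polyunsaturated fatty acid synthesis, read 14.64 and 14.75 in shNCT, 14.73 and 14.62 in shS100A10_1 and 14.24 and 14.00 in shS100A10_5, with a change of -0.58 (SE 0.17, adjusted p = 0.0998) for shS100A10_5. The acetyl-CoA carboxylases ACACA and ACACB, which make malonyl-CoA, had changes of -0.37 and -0.28, and ELOVL6, which lengthens palmitate, had 0.22, with adjusted p-values from 0.26 to 0.58. ELOVL6 read 13.11 and 13.05 in shNCT, 12.98 and 13.25 in shS100A10_1 and 13.06 and 13.56 in shS100A10_5, so the positive change rested on replicate 2 and was -0.025 without it. ACACB was the one member whose control mean (5.85) lay below the median of all control means.

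The medians of the 2 branches lay close together. For each array, the median difference from the control mean was -0.34 and -0.49 in the sterol branch and -0.38 and -0.31 in the fatty acid branch for replicates 1 and 2 of shS100A10_5. For shS100A10_1 it was -0.06 and -0.12 in the sterol branch and -0.10 and 0.05 in the fatty acid branch. The values of the 2 branches overlapped in each group, and no test was run between them.

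**Figure D3:**
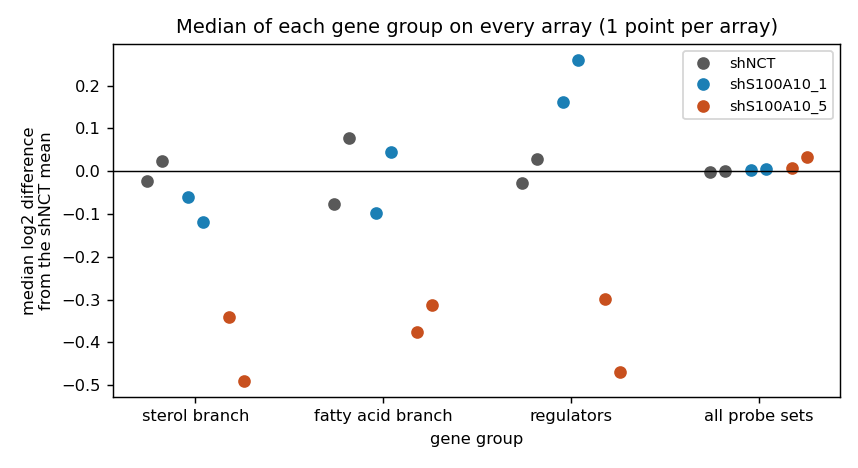
Median log2 difference from the mean of the shNCT arrays (vertical axis) for each gene group (horizontal axis), with 1 point per array and colours for the 3 hairpins. In each of the 3 lipid gene groups both arrays of shS100A10_5 lie lowest, between -0.49 and -0.30, whereas the median over all probe sets lies within 0.034 of 0 on every array.

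Of the 6 regulators, 4 had a negative change with shS100A10_5 and 2 a positive one (median -0.35), with shS100A10_1 all 6 had a positive change (median 0.22), and none passed against shNCT in limma. At an unadjusted p under 0.05, 3 were lower with shS100A10_5 and 1, INSIG2, was higher with shS100A10_1. Of all probe sets, 10.3% were lower with shS100A10_5 and 4.28% higher with shS100A10_1 in this way. SREBF1, the transcription factor, read 8.98 and 9.14 in shNCT, 9.38 and 9.31 in shS100A10_1 and 8.46 and 8.60 in shS100A10_5. The 3 groups did not overlap, with shS100A10_1 highest and shS100A10_5 lowest. Its changes against shNCT were 0.28 (SE 0.17, adjusted p = 0.72) for shS100A10_1 and -0.53 (SE 0.17, adjusted p = 0.11) for shS100A10_5. SREBF2, its paralogue, read 8.06 and 8.18 in shNCT, 8.0 and 8.27 in shS100A10_1 and 8.32 and 7.60 in shS100A10_5. Its shS100A10_5 arrays fell on both sides of all others, and the change was -0.16 (SE 0.24, 95% interval -0.69 to 0.36, adjusted p = 0.75).

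SCAP, the sterol-sensing escort of the SREBPs, read 12.17 and 12.14 in shNCT, 12.14 and 12.38 in shS100A10_1 and 11.76 and 11.41 in shS100A10_5. INSIG1, the retention protein that is itself an SREBP target, read 9.49 and 9.48 in shNCT, 9.53 and 9.76 in shS100A10_1 and 8.85 and 9.01 in shS100A10_5. For both genes the shS100A10_5 arrays were the lowest, with changes of -0.57 for SCAP (SE 0.19, adjusted p = 0.12) and -0.55 for INSIG1 (SE 0.17, adjusted p = 0.11). INSIG2, the second retention protein, which is known to be less dependent on SREBP, read 9.57 and 9.75 in shNCT, 10.15 and 10.22 in shS100A10_1 and 9.85 and 10.31 in shS100A10_5. All 4 hairpin arrays lay above both controls, by changes of 0.53 (SE 0.20, adjusted p = 0.48) and 0.42 (SE 0.20, adjusted p = 0.26). STARD4, a carrier that moves cholesterol between membranes, had changes of 0.29 and 0.18 (SE 0.24 each), and its shS100A10_5 arrays read 10.13 and 10.90, one below and one above all other 4 arrays.

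The direct comparison of the hairpins asks which of these genes differ between 2 groups of cells that both have less S100A10 mRNA. The groups also differ in the depth of that loss, as S100A10 was higher with shS100A10_5 by 2.70 on the log2 scale (limma adjusted p = 0.0010). Of the 30 members, 7 differed. MVK, MSMO1, FASN, ACSS2, SCD and SREBF1 were lower with shS100A10_5 than with shS100A10_1, and ME1 was higher. That is 6 lower and 1 higher of 30, where 1.48% of all probe sets were called lower and 1.43% higher. The median difference was -0.27 over the members and 0.016 over all probe sets. At an unadjusted p under 0.05, 14 members were lower and 2 higher, where 9.8% of all probe sets were lower and 10.1% higher.

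On the log2 scale, the hairpins differed by -1.10 for MVK (SE 0.23, limma adjusted p = 0.038) and by -1.01 for ACSS2 (SE 0.19, adjusted p = 0.025). SCD differed by -0.94 (SE 0.21, adjusted p = 0.047) and FASN by -0.88 (SE 0.17, adjusted p = 0.028). SREBF1 differed by -0.82 (SE 0.17, adjusted p = 0.037) and MSMO1 by -0.79 (SE 0.18, adjusted p = 0.044). ME1 was 2.0-fold higher, at 1.0 (SE 0.19, limma adjusted p = 0.024). In each case the 2 arrays of one hairpin did not overlap the 2 of the other. INSIG1 (-0.71, adjusted p = 0.059), SCAP (-0.67, adjusted p = 0.085) and HSD17B7 (-0.60, adjusted p = 0.096) came nearest to the threshold without passing. Part of the distance for SCD and SREBF1 came from higher values with shS100A10_1, whereas MVK, FASN and ACSS2 had changes of -0.09, -0.01 and 0.06 with shS100A10_1 against shNCT.

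**Figure D4:**
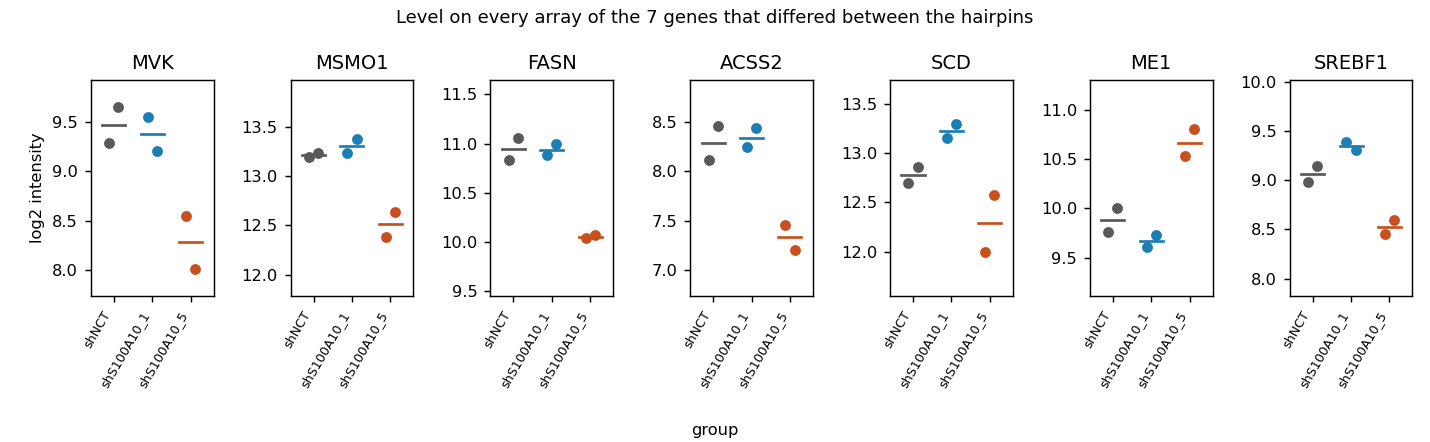
Log2 intensity (vertical axis, the same span in each panel) on every array of the 7 genes that differed between the hairpins, by group (horizontal axis); points are arrays and lines are means of 2 arrays. In 6 panels both shS100A10_5 points lie below those of shS100A10_1 and shNCT, and in the ME1 panel they lie above them.

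These calls depended on single arrays, replicate 2 of shS100A10_5 among them. With that replicate left out, the hairpins differed by more for MSMO1, SCD, SREBF1 and FASN (-0.92, -1.23, -0.89 and -0.90). They differed by less for MVK, ACSS2 and ME1 (-0.83, -0.89 and 0.86). Without replicate 2 of shS100A10_5, 0 members passed in either comparison in limma, where 1 probe set passed as lower and 2 as higher against shNCT and 1 and 6 against shS100A10_1. Against shNCT, 24 of 30 members then had a negative change (median -0.36), 20 of which were among the 22 that had one with all arrays. NSDHL and SREBF2 turned positive (0.21 and 0.19), and IDI1, CYP51A1, ELOVL6 and STARD4 turned negative (-0.24, -0.14, -0.025 and -0.20). Between the hairpins 23 were negative (median -0.40), where NSDHL and SREBF2 turned positive (0.17 and 0.18) and ELOVL6 negative (-0.06). None of these 6 genes passed in limma in either comparison with all arrays. With either one of the shNCT arrays left out, 0 members passed against shNCT, and with either one of the shS100A10_1 arrays left out, 0 passed between the hairpins. Over all probe sets, 539 passed against shNCT with all arrays, 22 and 12 without replicate 1 or 2 of shNCT and 994 without replicate 1 of shS100A10_5. Between the hairpins 494 passed with all arrays, 83 and 131 without replicate 1 or 2 of shS100A10_1 and 656 without replicate 1 of shS100A10_5. Without replicate 1 of shS100A10_5, MVK, FDPS, ACSS2, FASN and ME1 passed against shNCT, and MVK, FDPS, ACSS2 and ME1 between the hairpins. MSMO1, SCD and SREBF1 lost their call between the hairpins in all 6 fits that left out 1 array, and FASN in 4 of them, with adjusted p-values from 0.0555 to 0.127.

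The spread between replicates was widest for shS100A10_5, over these genes and over all probe sets. The SD of the log2 difference between replicates over the 30 members was 0.37 for shS100A10_5, 0.18 for shNCT and 0.21 for shS100A10_1, and over all probe sets it was 0.36, 0.287 and 0.292. Replicate 2 was below replicate 1 for 15 members and above it for the other 15. Across all named probe sets the deviation of replicate 2 was related to the genomic length of the gene (Spearman rho 0.247, a description over 15674 probe sets that share 1 array), and on the other 5 arrays rho lay between -0.207 and 0.0354. The change with shS100A10_5 against shNCT, a different quantity, had a rho with gene length of 0.173 over all probe sets with a length and of 0.25 over the 30 members. Without replicate 2 of shS100A10_5 the rho over the members was 0.32, so it did not rest on that array. Members with negative and positive changes had median lengths of 23.5 and 22.6 kb. With a smooth trend on gene length removed, an alternative chosen after seeing the data, the same 3 genes passed against shNCT, while MSMO1 (-0.76, adjusted p = 0.055) and SCD (-0.92, adjusted p = 0.060) no longer passed between the hairpins.

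Beyond these genes, 12 of 19 other SREBP pathway genes were measured. Over all probe sets, 1.75% were called lower and 1.43% higher with shS100A10_5 against shNCT, and 0.189% in either direction with shS100A10_1. Of the 12 genes, 1 passed against shNCT as lower and 0 as higher with shS100A10_5 (median change -0.06). With shS100A10_1, 0 passed and GGPS1 alone, as higher, had an unadjusted p under 0.05 in limma (median change -0.06). Of all probe sets, 4.28% were higher in this way. The gene that passed was SLC25A1, the mitochondrial citrate carrier that exports the carbon for ACLY. It read 9.37 and 8.88 in shNCT, 8.71 and 8.97 in shS100A10_1 and 8.26 and 7.89 in shS100A10_5, and fell by 1.05 with shS100A10_5 (SE 0.22, limma adjusted p = 0.036, 0.20 without replicate 2). MID1IP1, an activator of acetyl-CoA carboxylase, had a change of -0.67 (adjusted p = 0.10). GGPS1, the geranylgeranyl diphosphate synthase, had 0.45 with shS100A10_1 (adjusted p = 0.46) and -0.17 with shS100A10_5. RNF139, a ubiquitin ligase of the endoplasmic reticulum, had 0.34 and 0.32 (adjusted p = 0.64 and 0.32).

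Of 16 genes for sterol sensing by the liver X receptor (LXR) and sterol efflux, 12 were measured. With shS100A10_5, 1 passed as lower against shNCT and 0 as higher (median -0.12), and between the hairpins 2 were lower. Over all probe sets, 1.75% were called lower and 1.43% higher against shNCT, and 1.48% lower between the hairpins. With shS100A10_1 0 passed in limma, and an unadjusted p under 0.05 was met by ABCA1 and CH25H, both higher. Of all probe sets, 4.28% were higher in this way. LPCAT3, which puts polyunsaturated fatty acids into phospholipids, read 9.84 and 10.18 in shNCT, 10.21 and 10.43 in shS100A10_1 and 9.11 and 8.88 in shS100A10_5. It fell by 1.02 against shNCT (SE 0.19, limma adjusted p = 0.029) and differed by -1.33 between the hairpins (adjusted p = 0.011). ABCA1, the cholesterol exporter, read 7.12 and 7.49 in shNCT, 8.08 and 8.51 in shS100A10_1 and 7.40 and 7.36 in shS100A10_5. Its change was 0.99 with shS100A10_1 (SE 0.21, adjusted p = 0.13) and 0.08 with shS100A10_5, and the hairpins differed by -0.91 (adjusted p = 0.047). NR1H3, an LXR, had 0.57 with shS100A10_5 (adjusted p = 0.17). CH25H, which makes an oxysterol, had 0.60 with shS100A10_1 (adjusted p = 0.33). The control mean of CH25H was 4.17, below the lower quartile of probe set means (4.98). Without replicate 2 of shS100A10_5, LPCAT3 had adjusted p-values of 0.18 and 0.11 and ABCA1 of 0.19 between the hairpins.

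Genes of fatty acid oxidation, the opposite process, were measured for 14 of 16. With shS100A10_5, 1 passed as lower and 1 as higher (median 0.09), and between the hairpins 2 were lower and 1 higher. Over all probe sets, 1.75% were called lower and 1.43% higher against shNCT, and 1.48% and 1.43% between the hairpins. With shS100A10_1 0 passed in limma, and an unadjusted p under 0.05 was met by 2 higher and 0 lower genes. Of all probe sets, 4.28% were higher and 4.16% lower in this way. PPARGC1A, a coactivator of mitochondrial oxidation genes, read 7.85 and 7.56 in shNCT, 7.69 on both arrays of shS100A10_1 and 8.75 and 9.06 in shS100A10_5, and rose by 1.20 (SE 0.19, limma adjusted p = 0.013). CPT2, which passes fatty acids from carnitine back to coenzyme A inside mitochondria, read 8.82 and 8.83 in shNCT, 8.99 and 8.86 in shS100A10_1 and 8.0 and 8.10 in shS100A10_5. CPT2 fell by 0.78 with shS100A10_5 (SE 0.17, limma adjusted p = 0.040). Both genes also differed between the hairpins, by 1.22 and -0.87 (adjusted p = 0.013 and 0.025). CPT1A, the gate of fatty acid entry into mitochondria, read 8.09 and 8.03 in shNCT, 8.62 and 8.71 in shS100A10_1 and 7.33 and 7.95 in shS100A10_5. It differed by -1.02 between the hairpins (adjusted p = 0.037), with 0.60 and -0.42 against shNCT. PPARA had 0.51 and 0.72 (adjusted p = 0.54 and 0.090). Without replicate 2 of shS100A10_5 the adjusted p was 0.13 for PPARGC1A, 0.15 for CPT2 and 0.074 for CPT1A between the hairpins.

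Of 12 genes for triglyceride and lipid droplets, 10 were measured and 0 passed in any comparison in limma. The unadjusted p was under 0.05 for 1 gene, higher, with shS100A10_5, for 1 lower and 1 higher with shS100A10_1, and for 2 lower and 1 higher between the hairpins. Of all probe sets, 10.3% were lower and 10.7% higher in this way with shS100A10_5. With shS100A10_1 these shares were 4.16% and 4.28%, and between the hairpins 9.8% and 10.1%. DGAT2, which makes triglyceride, had 0.76 with shS100A10_5 (adjusted p = 0.063), and PLIN2, the coat protein of lipid droplets, had -0.32 (adjusted p = 0.33). G0S2 and MGLL, a lipase inhibitor and a lipase, had -0.42 and 0.40 with shS100A10_1 (adjusted p = 0.53 and 0.56).

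None of the marker lists of other cell types had a called gene in any comparison in limma. The measured markers numbered 5 of 8 for luminal breast, 4 of 7 for adipocytes, 5 of 5 for hepatocytes, 4 of 5 for leukocytes and 3 of 4 for fibroblasts. At an unadjusted p under 0.05, KRT19 (-0.81, adjusted p = 0.062) was lower with shS100A10_5, and EPCAM (0.72, adjusted p = 0.062), LUM (0.97, adjusted p = 0.074) and PDGFRB (0.55, adjusted p = 0.23) were higher. EPCAM, CD36 and DCN were higher on that scale with shS100A10_1, by 0.63, 0.60 and 0.58 (adjusted p from 0.33 to 0.57). Of all probe sets, 10.3% were lower and 10.7% higher in this way with shS100A10_5, and 4.28% were higher with shS100A10_1. The summed intensity of the 5 luminal markers, most of it KRT19, was 13850 to 15150 in shNCT, 12080 to 13720 in shS100A10_1 and 8281 to 10600 in shS100A10_5. That of the 3 fibroblast markers was 112 to 122, 124 to 128 and 169 to 187 in the same order, and these markers had log2 control means between 4.62 and 5.97. That of the 4 adipocyte markers was 88.2 to 92.2, 107.2 to 110.6 and 94.3 to 94.4 in the same order. None of these sums overlapped between shS100A10_5 and the other groups, and their part in the lipid gene values was not tested.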

How the data were processed

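Total RNA was labelled with biotin and hybridised to whole-transcript arrays, per the labels' protocols. The authors deposited normalized intensities on a linear scale, with a value for every probe set and array, made with Transcriptome Analysis Console, per the submitters' processing notes. The sources used here do not give its version, the normalization method or the array's genome build. Platform annotation gave 15674 of 16965 probe sets 1 gene symbol and 1291 none; a log2 level is not comparable between probe sets. The table holds no detection calls and no scan dates.

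Samples were grouped by their titles, 2 arrays per group. In R 4.3.3, limma 3.58.1 fitted a group-means model (lmFit, eBayes) to log2 intensities of all 6 arrays (3 residual and 7.16 prior degrees of freedom), with two-sided tests. P-values were adjusted over every probe set (Benjamini-Hochberg), and the threshold was 0.05. Intervals are 95%. The fit was tested on simulated data. Lists are described by counts and medians, without a test.

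The genes and lists were chosen with earlier results of these data known. Members described on every array were those past the threshold, SREBF1, SREBF2, SCAP, INSIG1, INSIG2 and the 2 genes of each branch with the highest control level. Of each other list, genes past the threshold and the 2 with the smallest unadjusted p for each hairpin were named. ELOVL6, MVD and MMAB were added after their values were seen. Alternatives covered normalization, dim probe sets, eBayes settings, array weights, the groups in the fit, the replicate number as a block, the threshold and each array left out. Promoters came from RefSeq (GRCh38.p14) and were searched for the motifs with Python 3.11.15.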

Additional observations from a re-analysis of the deposited data

How the results depend on the processing

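The number of members that passed was 0 with shS100A10_1 under all 17 alternatives. Against shNCT with shS100A10_5 it was 3, where 539 of all probe sets passed. It was 7 without the dimmest 25% of probe sets (952 of all), 9 with an intensity trend in eBayes (1454), 9 at an adjusted p of 0.1 (1344) and 1 with array weights (242), and it ranged from 0 to 5 over the fits without 1 array. Between the hairpins it was 7 (494 of all), with 11 under the trend (1144), 2 with array weights (287), 4 in a fit of only the groups compared (291), and 0 to 4 without 1 array. No member changed sign in any alternative in a comparison where it passed. Changes of sign were counted for the 14 members chosen by rule, without ELOVL6 and MVD, which were added later. Among these 14, 11 values in 6 genes changed sign with shS100A10_1, where none had passed. These genes were MVK, ACSS2, FASN, SREBF2, SCAP and FADS2. Among the same 14, 1 value in 1 gene changed sign with shS100A10_5, and 4 values in 3 genes did between the hairpins. Of all 30 measured members, 6 changed sign against shNCT without replicate 2 of shS100A10_5. Beyond the number of genes tested and arrays used, the cause was not tested.

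The median of the sterol branch ranged from -0.14 to -0.061 with shS100A10_1, from -0.49 to -0.34 with shS100A10_5 and from -0.41 to -0.30 between the hairpins when 1 array was left out. That of the fatty acid branch ranged from -0.52 to -0.27 with shS100A10_5 and from -0.34 to -0.086 between the hairpins, and was -0.47 and -0.28 with the trend on gene length removed. With shS100A10_1 it ranged from -0.11 to 0.045.

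Equal replicate numbers did not pair the arrays (correlations of same-numbered deviations of -0.022, -0.035 and 0.19). With the replicate number as a block, 5 members passed against shNCT (MVK, FDPS, ACSS2, FASN and ME1), where 625 of all probe sets did, 7 between the hairpins and 0 with shS100A10_1. With 2 arrays per group and no detection calls, the number of arrays limits the precision.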
